A study of Homo sapiens with 24 samples.

Results

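The 503 microRNA loci described here were chosen by name and by signal. They are the genes whose array symbol starts with MIR and a digit or with MIRLET, host genes ending in HG left out, and whose mean signal reached the median of all rows and arrays (4.02 on the log2 scale) in at least 1 of 8 groups. They are 503 of the 1072 microRNA loci with a row on the array, and 503 of the 10641 genes that reached that level. The other 569 microRNA loci stayed under it in all 8 groups. The groups are 4 human acute myeloid leukaemia cell lines, each with 10 mM metformin for 24 h or untreated: metformin-treated and untreated KG1a, MOLM14, HL60 and U937, with 3 Affymetrix arrays per group, lettered A to C, and 24 in all. Metformin is a diabetes drug, used here, per the design text, to inhibit complex I, the entry point of the electron transfer chain. By the labels, KG1a and MOLM14 have high oxidative phosphorylation (OXPHOS), while both HL60 and U937 have low OXPHOS, and a further label counts metformin-treated KG1a and MOLM14 as low OXPHOS. The stated aim was a gene signature of high OXPHOS function, and the labels give no growth medium, passage or clone for the lines.

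A microRNA gene is transcribed as a long primary transcript, often the intron or exon of a host gene. DROSHA with DGCR8 cuts a hairpin out of it in the nucleus, exportin 5 carries the hairpin out, and DICER1 cuts the hairpin to a short mature strand that guides an Argonaute protein to messenger RNAs. Pairing rests mainly on the seed, bases 2 to 8 of the mature strand, and loci with the same seed are grouped as a family. In blood cells, miR-223 and miR-142 are known as myeloid and pan-haematopoietic microRNAs, miR-155 as a product of activated immune cells, and the miR-15/16 and miR-17 families as regulators of survival and of the cell cycle. A gene array reads labelled RNA that carries the probe sequences of a locus, so the values below are those of the locus' transcript. Mature microRNAs were not measured, and a primary transcript, its hairpin and a spliced or retained stretch of the host cannot be told apart.

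Among the loci with clear changes with metformin were MIR628 and MIR616, which were higher, and MIR4521 and MIR181B1, which were lower. Their hairpins are shown because the results turn on them, with the annotated mature strands in capitals, 5′ to 3′, from RefSeq on GRCh38.p14. MIR628 lies at chr15:55372940-55373034 (minus strand) inside CCPG1 on the same strand, MIR616 at chr12:57519163-57519259 (minus strand) inside DDIT3 on the same strand, MIR181B1 at chr1:198858873-198858982 (minus strand) inside the long noncoding RNA gene MIR181A1HG, and MIR4521 at chr17:8186945-8187004 (plus strand) outside any annotated gene. The annotation used gives gene spans and not exons, so intron and exon were not assigned.
MIR628 hairpin: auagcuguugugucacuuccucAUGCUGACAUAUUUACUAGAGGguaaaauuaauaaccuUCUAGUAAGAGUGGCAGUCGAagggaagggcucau
MIR616 hairpin: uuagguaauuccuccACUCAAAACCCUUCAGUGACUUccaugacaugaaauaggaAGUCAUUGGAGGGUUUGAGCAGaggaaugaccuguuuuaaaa
MIR4521 hairpin: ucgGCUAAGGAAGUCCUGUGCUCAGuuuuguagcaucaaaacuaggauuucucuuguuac
MIR181B1 hairpin: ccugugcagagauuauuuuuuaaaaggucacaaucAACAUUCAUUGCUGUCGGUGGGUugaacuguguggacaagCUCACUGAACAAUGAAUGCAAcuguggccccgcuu

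The mature strands below belong to loci whose metformin change is described per array or per family, with the seed (bases 2 to 8) in capitals. They are shown to make the shared seeds visible: MIR181B1 and MIR181B2 encode 1 identical strand from chromosomes 1 and 9, MIR93 and MIR106B share a seed that their cluster neighbour MIR25 lacks, MIR15B, MIR16-2 and MIR424 share another, and so do MIR221 and MIR222.
hsa-miR-181b-5p (MIR181B1): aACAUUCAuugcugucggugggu
hsa-miR-181b-5p (MIR181B2): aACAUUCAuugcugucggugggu
hsa-miR-25-3p: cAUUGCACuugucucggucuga
hsa-miR-93-5p: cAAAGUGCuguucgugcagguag
hsa-miR-106b-5p: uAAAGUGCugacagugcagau
hsa-miR-15b-5p: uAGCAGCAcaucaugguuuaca
hsa-miR-16-5p (MIR16-2): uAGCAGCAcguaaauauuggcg
hsa-miR-424-5p: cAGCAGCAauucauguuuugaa
hsa-miR-221-3p: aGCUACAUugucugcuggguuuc
hsa-miR-222-3p: aGCUACAUcuggcuacugggu
hsa-miR-142-3p: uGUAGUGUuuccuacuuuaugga
hsa-miR-223-3p: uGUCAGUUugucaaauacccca
hsa-miR-21-5p: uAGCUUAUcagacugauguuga
hsa-miR-196b-5p: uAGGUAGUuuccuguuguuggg

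The members are dim as array genes go. Their median level over all arrays was 4.49 (log2), against 5.75 for the other genes that reached the level. Among them 283 reached the level in all 8 groups and 47 in only 1, and since the level rule used the group means, those 47 had to differ between some groups. At the edge of the rule, MIR345, MIR4793 and MIR517A entered with a highest group mean of 4.02, 4.02 and 4.03, and MIR607, MIR3115 and MIR202 stayed out at 4.02 each. Changes below are differences of group means on the log2 scale ± the standard error (SE), tested with limma and adjusted by the Benjamini-Hochberg method over all 10641 genes at a threshold of 0.05. The median SE of a change averaged over the 4 lines was 0.080 for members, against 0.052 for the other genes. The labels do not say that the 3 arrays of a group stand for independent cultures. The p-values therefore reflect array-to-array spread, which may be technical, and 3 arrays per group limit the precision. Equal amounts of RNA from whole cultures were labelled, so a change in every cell and a change in the share of cells that carry a transcript cannot be told apart.

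Within a group, arrays correlated at 0.989 to 0.996 over all tested genes and at 0.894 to 0.965 over members, lowest for pairs with metformin-treated U937 array A or untreated HL60 array C. These 2 arrays and untreated U937 array C stood apart, and results that rest on them are also given without all 3. Of 11 myeloid markers 6 had a named row and 5 reached the level, and of 5 progenitor markers 5 and 5. Of 6 T-cell markers 3 had a row and 2 reached the level, and of 5 epithelial or stromal markers 3 and 2. Of 5 B-cell markers 1 had a row and 1 reached the level, as of 5 erythroid markers. Markers without a named row could not be read. Of the 5 myeloid markers, MPO, LYZ and TYROBP averaged 3.26, 3.46 and 3.38 in untreated KG1a cells, under the level, and SPI1 and CSF1R 4.65 and 4.28, over it. Untreated U937 cells had MPO under the level too, at 3.30, and untreated HL60 cells had CSF1R at 4.12. The progenitor marker CD34 averaged 11.24 in untreated KG1a cells and 3.53 to 3.61 in the other 3 untreated lines. The other progenitor markers were less confined to KG1a. Untreated GATA2 was 5.56, 5.90 and 5.83 in HL60, against 6.35, 6.11 and 6.11 in KG1a. Untreated ERG was 5.61, 5.58 and 5.45 in U937, against 7.40, 7.37 and 7.18 in KG1a. KIT was 4.26, 3.98 and 4.47 in untreated MOLM14, against 4.01, 4.27 and 4.22 in KG1a. PROM1 was 4.08, 3.98 and 4.02 in untreated KG1a and at most 3.72 in the other untreated lines. Metformin-treated MOLM14 cells had lower MPO (change -1.32 ± 0.09, adjusted p = 2.76e-09) and lower CSF1R (-0.66 ± 0.11, adjusted p = 0.000411), and metformin-treated HL60 cells had lower GATA2 (-0.65 ± 0.10, adjusted p = 5.15e-05), LYZ (-0.48) and SPI1 (-0.34). In metformin-treated U937 cells the B-cell marker PAX5 (-0.62) and the progenitor marker ERG (-0.30) fell. The part of these markers in the microRNA results was not tested.

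Averaged over the 4 lines, with 12 metformin and 12 untreated arrays, 55 microRNA loci rose and 32 fell, 87 of 503. That is 17.3% of the members, beside 32.3% of all genes tested (16.3% higher and 16.1% lower). The median change of members was 0.00, against -0.01 for all genes. Of the 87, 45 had all 8 group means over the level and 5 had 1. The level rule itself favours a difference where only groups of 1 treatment reached it, as in 3 of the 87 for metformin groups and 4 for untreated groups, and for such loci named below the values are given as a description. In 11 the change was at least 0.5 (log2), 10 higher and 1 lower. In single lines, 45 loci rose in exactly 1 line and 41 fell in exactly 1, beside 13.6% and 11.3% of all genes. In exactly 2 lines 5 rose and 6 fell, beside 4.44% and 3.91%. In exactly 3 lines MIR616 and MIR4263 rose and MIR4521 fell, beside 1.06% and 1.18%.

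MIR628 was the only member to pass the test upward in each of the 4 lines separately, which 0.16% of all genes did. In HL60 its signal was 6.05, 6.30 and 5.96 with metformin, against 4.14, 4.26 and 3.97 without. In U937 it was 6.73, 5.95 and 6.24 with metformin, against 4.45, 4.81 and 4.90 without. In KG1a it was 6.16, 5.57 and 5.89 with metformin, against 5.29, 5.03 and 5.31 without, and in MOLM14 4.50, 4.44 and 4.30 with metformin, against 3.73, 3.48 and 3.82 without. In all 4 lines the 3 metformin arrays lay above the 3 untreated arrays, with the widest gap in HL60. The change was 1.98 ± 0.16 in HL60, 1.59 ± 0.16 in U937, 0.74 ± 0.16 in MOLM14 and 0.67 ± 0.16 in KG1a, and averaged 1.24 ± 0.08 over the lines (adjusted p = 5.06e-11). The KG1a rise (adjusted p = 0.0299) did not pass when untreated KG1a array A, B or C or metformin array A or C was left out, with adjusted p up to 0.177. The host CCPG1, an endoplasmic reticulum autophagy receptor gene, was not analysed here. The readthrough DNAAF4-CCPG1, whose span also covers MIR628, rose by 0.46 ± 0.06 (adjusted p = 4.46e-06), with 1.01 in HL60 and 0.08 in KG1a.

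MIR616 lies inside DDIT3, the gene of the stress transcription factor CHOP, and rose in 3 of the 4 lines. Its signal in HL60 was 5.49, 5.11 and 5.07 with metformin, against 3.88, 4.28 and 4.08 without. In U937 it was 4.65, 4.53 and 4.57 with metformin, against 3.68, 3.97 and 3.94 without, and in MOLM14 4.24, 4.68 and 4.78 with metformin, against 3.96, 4.02 and 4.21 without. In these 3 lines all metformin arrays lay above all untreated arrays, by the smallest margin in MOLM14. KG1a had 3.57, 3.34 and 3.33 with metformin, against 3.59, 3.13 and 3.44 without, which overlap. The changes were 1.14 ± 0.14, 0.72 ± 0.14 and 0.50 ± 0.14 in HL60, U937 and MOLM14 and 0.03 ± 0.14 in KG1a, where it did not pass the test. DDIT3 itself ran the same way, with changes of 2.43, 1.61, 0.68 and 0.03 in the same lines. On every KG1a array both MIR616 and DDIT3 were under the level of 4.02, where a change could be hidden. The MOLM14 rise (adjusted p = 0.0392) did not pass without untreated MOLM14 array A or B or metformin array B or C. Over the 8 group means the rows of MIR616 and DDIT3 correlated at 0.996, as a description of transcripts from 1 stretch of genome on the same arrays.

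**Figure D1:**
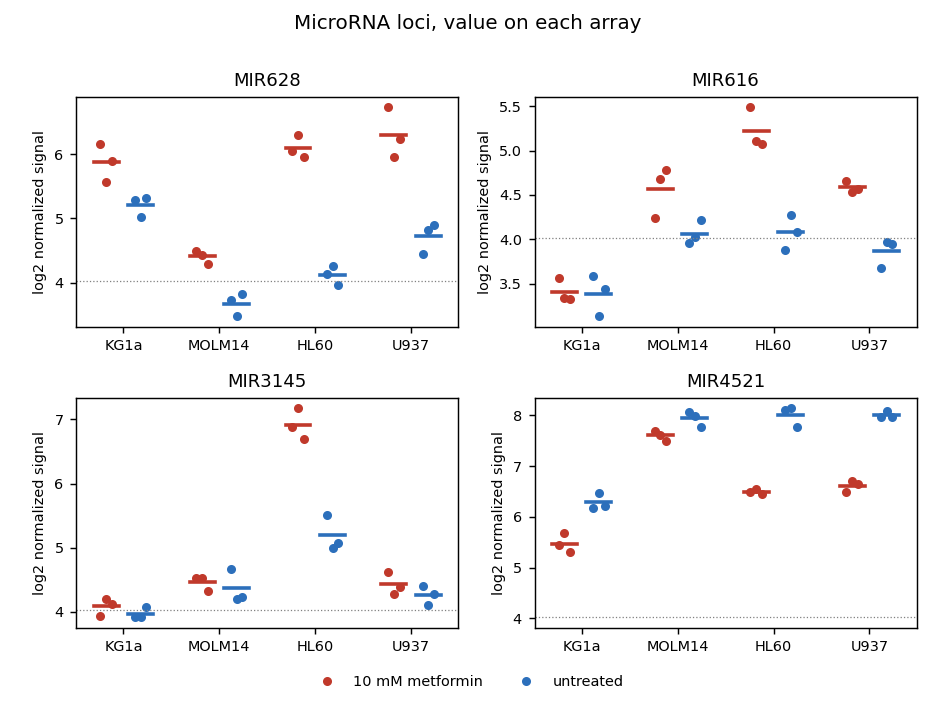
Log2 normalized signal (y axis) of MIR628, MIR616, MIR3145 and MIR4521 on each array, by line (x axis), metformin arrays in red left of untreated arrays in blue. Points are arrays, bars are means of 3 arrays and the dotted line is the level of 4.02. MIR628 was higher with metformin in all 4 lines, MIR616 in all but KG1a, MIR3145 in HL60 by 1.72, and MIR4521 was lower in all 4, by the least in MOLM14.

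A further group of loci rose by about 0.5 to 0.6 on the mean of 4 lines. In single lines MIR4525, MIR612, MIR3934 and MIR3671 passed in HL60 and U937 and MIR421 in none. MIR4525, inside the small GTPase gene RAB40B, rose by 0.59 ± 0.09 (adjusted p = 2.46e-05), and MIR612, inside NEAT1, the scaffold RNA of nuclear paraspeckles, by 0.57 ± 0.10 (adjusted p = 6.08e-05). For both, the 3 metformin arrays lay above the 3 untreated arrays in every line. In all, 5 members showed this, 0.994% beside 1.17% of all genes, the others being MIR628, MIR548I1 and MIR548I2. A second array row of MIR548I2 had a mean change of 0.02. MIR421, inside the noncoding gene FTX of the X inactivation centre, rose by 0.64 ± 0.18 (adjusted p = 0.00918). MIR3934, which lies opposite to UQCC2, an assembly factor of respiratory complex III, rose by 0.54 ± 0.08 (adjusted p = 2.66e-05), while UQCC2 fell by 0.12 ± 0.04 (adjusted p = 0.0295), a call lost in 10 of 37 alternatives, HL60, KG1a or MOLM14 left out among them. MIR3671, inside the kinase gene JAK1, rose by 0.50 ± 0.08 (adjusted p = 2.6e-05) with JAK1 at 0.19, and a second array row of MIR3671 moved the same way in all 4 lines.

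Some of the other rises rested on 1 line or on arrays that stood apart. MIR3145, inside NHSL1, had 6.88, 7.17 and 6.69 in metformin-treated HL60 cells, against 5.51, 5.00 and 5.07 in untreated HL60 cells. There the groups are far apart, while its changes in the other lines were 0.12, 0.09 and 0.17 in KG1a, MOLM14 and U937 and passed no test. NHSL1 rose in HL60, MOLM14 and U937 alike, by 0.75, 0.76 and 0.71. The mean change of MIR3145 was 0.53 ± 0.07 and, without HL60, 0.13 (adjusted p = 0.219). MIR548L, inside the DNA repair gene MRE11, rose by 0.55 ± 0.18 (adjusted p = 0.0234) and by 0.25 without the 3 arrays that stood apart (adjusted p = 0.171). MIR1299 (0.53 ± 0.16), MIR570 (0.51 ± 0.13) and MIR1284 (0.46 ± 0.17), the last inside the transcription factor gene FOXP1, complete the 12 largest rises. Without HL60, and so with fewer arrays, MIR421 had 0.55 (adjusted p = 0.0731), and MIR1299 had 0.54 (adjusted p = 0.0544). MIR1284 had the largest adjusted p of these 12, 0.0383, and 0.203 without the 3 arrays that stood apart.

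MIR4521 fell by 1.01 ± 0.06 (adjusted p = 1.58e-12) and had the smallest adjusted p of any member. In HL60 its signal was 6.49, 6.56 and 6.45 with metformin, against 8.10, 8.14 and 7.76 without. U937 had 6.49, 6.71 and 6.65 with metformin, against 7.97, 8.09 and 7.96 without, and KG1a had 5.45, 5.68 and 5.30 with metformin, against 6.18, 6.47 and 6.21 without. MOLM14 had 7.69, 7.62 and 7.50 with metformin, against 8.07, 7.99 and 7.77 without. The metformin arrays lay below the untreated arrays in each of the 4 lines, which no other member and 1.76% of all genes showed. The fall was 1.50 ± 0.11 in HL60, 1.39 ± 0.11 in U937 and 0.81 ± 0.11 in KG1a, while the MOLM14 change of -0.34 ± 0.11 did not pass the test (adjusted p = 0.0804). A second array row for this locus, at a lower signal, had lower means with metformin in all 4 lines, with 4.51 against 5.66 in HL60 and 4.72 against 5.67 in U937.

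MIR181B1, of a microRNA family known from lymphocyte development in mice, was the next largest fall (-0.39 ± 0.07, adjusted p = 6.54e-05). It had 7.79, 7.41 and 7.48 in metformin-treated HL60 cells, against 8.53, 8.30 and 8.11 in untreated HL60 cells. MOLM14 had 6.17, 5.80 and 5.70 with metformin, against 6.85, 6.60 and 6.66 without. The groups do not overlap in these lines, which gave falls of 0.75 ± 0.13 and 0.81 ± 0.13. KG1a, with the highest signal, had 8.89, 8.84 and 8.99 with metformin, against 8.76, 8.80 and 8.79 without. There the metformin arrays lay just above the untreated ones, a change of 0.13 that did not pass the test, and U937 stayed near the level of 4.02 with and without metformin. MIR181B2, the locus on chromosome 9 with the same mature strand, rose by 0.34 ± 0.08 (adjusted p = 0.00158), and its values in HL60 were 5.57, 5.55 and 5.79 with metformin, against 5.22, 4.78 and 4.78 without. The surrounding noncoding genes had changes of 0.41 ± 0.08 for MIR181A2HG around MIR181B2 (adjusted p = 0.000271) and 0.04 ± 0.06 for MIR181A1HG around MIR181B1 (adjusted p = 0.681). The rise of MIR181B2 rested on HL60, without which it was 0.21 (adjusted p = 0.0946).

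The 3 loci of the miR-106b/25 cluster, MIR25, MIR93 and MIR106B, fell on the mean of 4 lines. So did MCM7, the replicative helicase subunit gene that contains them. Over the 8 group means the correlation with MCM7 was 0.976 for MIR25, 0.611 for MIR93 and 0.409 for MIR106B, as a description. MIR25 fell by 0.36 ± 0.09 (adjusted p = 0.00332), MIR106B by 0.26 ± 0.06 (0.00078) and MIR93 by 0.21 ± 0.06 (0.0131), beside 0.38 ± 0.03 for MCM7 (8.4e-09). In HL60, MIR25 had 6.06, 6.41 and 6.28 with metformin, against 6.75, 6.53 and 6.62 without. In U937 it had 5.47, 5.92 and 5.98 with metformin, against 6.35, 6.47 and 6.01 without. The arrays are separate in HL60, U937 and KG1a and overlap in MOLM14, where an untreated array was the lowest, and in no single line did the change of MIR25 pass the test. MIR93 lost the call when HL60 or U937 was left out.

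Of the other large falls, MIR142, one of the most abundant microRNAs of blood cells, fell by 0.26 ± 0.08 (adjusted p = 0.0097), and MIR155 by 0.24 ± 0.05 (adjusted p = 0.00124). Without HL60 the fall of MIR142 did not pass (change -0.19, adjusted p = 0.145), and without U937 it was -0.12 (adjusted p = 0.239). MIR155 did not pass without U937 (change -0.15, adjusted p = 0.0799). MIR4778 and MIR15B did not pass without HL60, and MIR4795, MIR603 and MIR877 did not without U937. MIR3143 fell by 0.34 ± 0.08, MIR4795 by 0.32 ± 0.07, MIR4778 by 0.31 ± 0.09, MIR3691 by 0.24 ± 0.08, MIR603 by 0.38 ± 0.11 and MIR877 by 0.36 ± 0.11. MIR603 and MIR3691 did not pass the test without the 3 arrays that stood apart, with changes of -0.28 (adjusted p = 0.0525) and -0.19 (adjusted p = 0.0889). MIR1252 had a mean change of -0.26 ± 0.08 and was over the level in the 4 untreated groups only. MIR877 lies inside the translation factor gene ABCF1 and has several array rows, of which all but the brightest share 1 set of values. Both the brightest row and that shared set had lower means with metformin in each line.

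**Figure D2:**
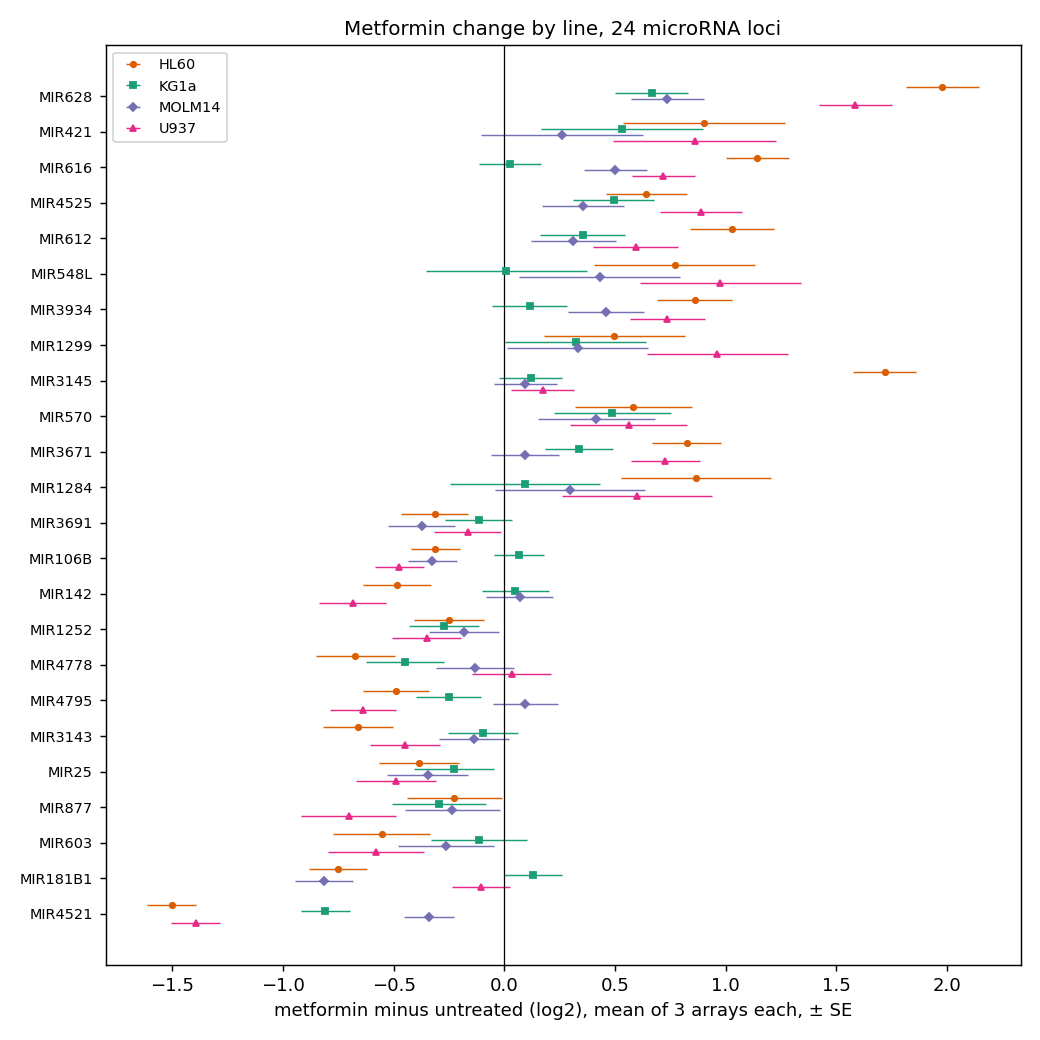
Metformin minus untreated (x axis, log2, mean of 3 arrays each ± SE) in each line for the 12 loci with the largest rise and the 12 with the largest fall among those that passed the test on the mean of 4 lines (y axis). MIR628 lies right of 0 in all 4 lines and MIR4521 left of 0 in all 4, while MIR3145 departs from 0 in HL60 and MIR181B1 in HL60 and MOLM14.

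Where a microRNA locus sits inside a tested gene on the same strand, both rows can be set side by side. There were 151 such pairs with 141 host genes. In 29 pairs the microRNA locus passed the test on the mean of 4 lines and in 55 the host did, beside 32.3% of all genes (16.3% higher and 16.1% lower). The host passed in the same direction in 12 of these 29, in the opposite direction in 1 and did not pass in 16. The 1 opposite pair was MIR548C (0.25 ± 0.08) in RASSF3 (-0.13). A second, dimmer array row of MIR548C had a mean change of -0.11, the same direction as RASSF3. The call of MIR548C was lost in 10 of 37 alternatives and that of RASSF3 in 9. Besides the pairs named above, MIR4263 (0.46) rose with BABAM2 (0.33), MIR1296 (0.37) with the histone demethylase family gene JMJD1C (0.25), MIR580 (0.38) with LMBRD2 (0.15, lost without HL60 or U937) and MIR1284 with FOXP1 (0.24). In 42 of the 55 pairs whose host passed, the microRNA locus did not. MIR33B, whose mature strand represses the cholesterol exporter ABCA1 and which lies in SREBF1, had a change of -0.02 ± 0.08 while SREBF1, the sterol regulatory factor gene, fell by 0.35 ± 0.06 (adjusted p = 4.21e-05).

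Across the 151 pairs the mean changes correlated at r = 0.486, a description over loci that share 24 arrays. Over the 8 group means of each pair the median r was 0.644, and 67 pairs reached 0.7. By position, of 267 loci inside a gene on the same strand 30 rose and 22 fell, 19.5%, and of the 110 outside any annotated gene 11 rose and 6 fell, 15.5%, beside 32.3% of all genes.

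**Figure D3:**
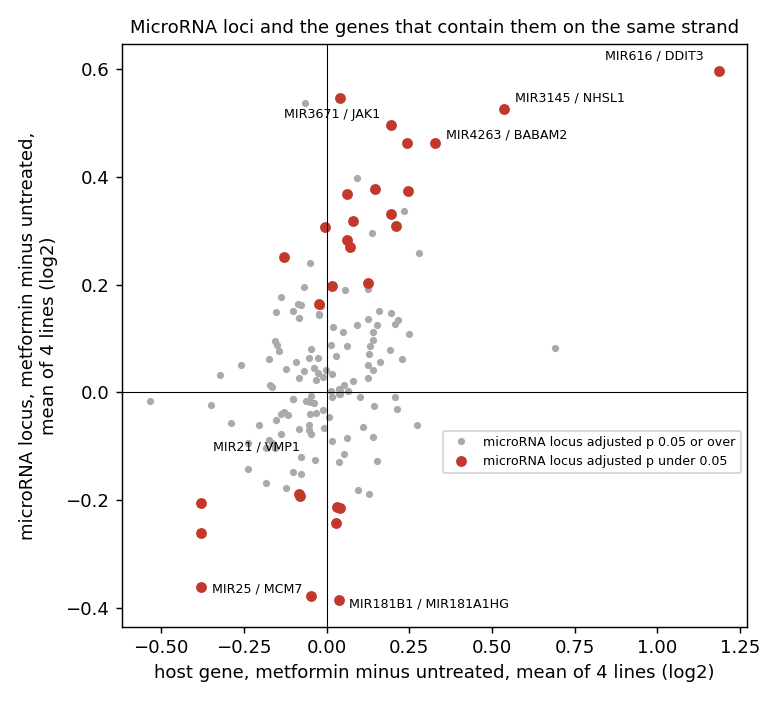
Metformin minus untreated, mean of 4 lines (log2), of the host gene (x axis) and of the microRNA locus inside it on the same strand (y axis) for 151 pairs, with loci past the test in red. MIR616 with DDIT3 and MIR3145 with NHSL1 lie at the upper right, the 3 loci of MCM7 at the lower left, and MIR181B1 falls beside a host at 0.04.

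Neighbours were joined when their starts lay at most 10000 bases apart, on 1 strand where both strands were given. By this rule 73 members formed 27 clusters, and 7 clusters held a locus that passed the test on the mean of 4 lines. That test was passed by 17.3% of all members, beside 32.3% of all genes (16.3% higher and 16.1% lower). How many clusters such shares alone would fill was not tested. In 1 of the 27, the cluster in MCM7, all members passed in 1 direction. In the MIR424 cluster 1 of 5 members, MIR424 itself, rose, and in the large chromosome 14 cluster 1 of 11, MIR539, fell (adjusted p = 0.0485), a call lost in 23 of 37 alternatives. MIR15B, which lies with MIR16-2 in the condensin gene SMC4, fell by 0.21 ± 0.07 (adjusted p = 0.0198), while MIR16-2, whose mature strand has the same seed, had a change of 0.00 ± 0.10 and did not pass.

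Among families of related loci, MIR548, a primate family derived from a DNA transposon, had 28 members of which 9 rose and 0 fell by limma (11 higher and 0 lower at an unadjusted p under 0.05), beside 16.3% of all genes higher and 16.1% lower. The median change was 0.12, and 21 of the 28 had a positive change, beside a median of -0.01 for all genes. MIR548I1, MIR548I2 and MIR548I3, all among the 9, are near-identical copies. Which copy gave the signal cannot be told, so the 9 may count the same signal more than once. MIR548AG2 and MIR548I3, also among the 9, were over the level in only 1 metformin and 1 untreated group each. On the brightest array rows of MIR548I1, MIR548I2 and MIR548I3 the highest signal was in U937. There untreated MIR548I2 averaged 7.99 ± 0.02 (SD, n = 3), while untreated HL60, KG1a and MOLM14 averaged 4.42 ± 0.23, 4.20 ± 0.13 and 4.02 ± 0.23. The let-7 loci with MIR98, known from cell differentiation, had 8 members, and 0 passed limma's test on the mean of 4 lines (0 higher and 0 lower at an unadjusted p under 0.05), with changes from -0.07 to 0.09. Of 6 MIR320 loci 1 was higher and 2 were lower, and the higher one, MIR320D1, was over the level in a metformin group only. Mature sequences were matched for 452 members, and 55 seeds were shared by 113 of them. Of the 6 loci with the AGCAGCA seed of miR-15, miR-16, miR-195 and miR-424, 1 rose (MIR424) and 1 fell (MIR15B), and both loci with the AAAGUGC seed, MIR93 and MIR106B, fell.

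Loci known from blood cells, p53, hypoxia or stress were read from a list of 104, of which 93 had a row and 54 were members. The list was chosen with earlier results of these data known, so the counts from it are a description. Of these 54, 6 passed upward and 9 downward on the mean of 4 lines, beside 16.3% and 16.1% of all genes, and their median change was -0.03 beside -0.01 for all genes. Beside MIR628 and MIR181B2, MIR424 (0.19), MIR223 (0.17), MIR24-2 (0.15) and MIR30E (0.19) rose. MIR4521, MIR181B1, the 3 loci of MCM7, MIR142, MIR155 and MIR15B fell. MIR122, the liver microRNA locus, makes up the 9 with a mean change of -0.19, but it was over the level in untreated HL60 and untreated U937 only, and a second array row of it had -0.06. The hypoxia microRNA locus MIR210 had a change of -0.01 ± 0.07 (adjusted p = 0.935) and MIR34C, of a p53-induced family, 0.00 ± 0.04 (0.952). MIR29A (0.17), MIR107 (-0.15) and MIR21 (-0.08) did not pass either. The rises of MIR223 and MIR30E had adjusted p = 0.0343 and 0.0375 and were lost under quantile normalization, where MIR424 was lost as well. Without HL60 the change of MIR424 was 0.03 (adjusted p = 0.784) and that of MIR223 0.04 (0.747).

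In HL60 alone, 27 microRNA loci rose and 32 fell, 59 of 503, beside 25.1% of all genes (15.5% higher, 9.56% lower). With arrays centred on their medians the split was 21 higher and 56 lower, a scaling that moved the median change of all HL60 genes from 0.00 to -0.10. The metformin and untreated arrays did not overlap for 103 members (54 higher, 49 lower), beside 37.2% of all genes (21.2% higher, 16% lower). The largest rises after MIR628 and MIR3145 were MIR548AG2 (1.23, over the level in HL60 only), MIR616, MIR612 (1.03) and MIR3686 (1.005). MIR15B had 3.84, 4.15 and 3.83 with metformin, against 5.19, 4.60 and 4.56 without, separate groups and a fall of 0.84 ± 0.14 (adjusted p = 7.64e-05). MIR3147 (-0.95, with -0.50 on a second array row), MIR4778 (-0.67), MIR3143 (-0.66) and MIR181B1 fell as well, and MIR486-1, known from erythroid cells, fell by 0.63 (adjusted p = 0.0415), with a change of -0.25 on another array row. The count for HL60 was 37 without its metformin array B.

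In U937, 30 loci rose and 19 fell, 49 of 503, beside 17.2% of all genes (7.46% higher, 9.74% lower), and 82 had arrays that did not overlap (48 higher, 34 lower), beside 29.9% (13.6% higher, 16.3% lower). Without the 3 arrays that stood apart the counts were 12 and 16, without metformin array A alone the total was 23, and without untreated array B alone 32. MIR221, of the pair of loci known to repress KIT and the cell cycle inhibitor p27, had 7.05, 7.50 and 7.31 with metformin, against 8.32, 8.26 and 8.06 without. These groups are well apart and MIR221 fell by 0.93 ± 0.15 (adjusted p = 0.000176). MIR222, its neighbour, had a U937 change of -0.46 ± 0.20 that did not pass, with 4.69, 3.53 and 3.35 with metformin, against 4.41, 4.26 and 4.29 without, where metformin array A stood apart. MIR142 had 6.58, 6.03 and 6.30 with metformin, against 7.08, 7.25 and 6.64 without and fell by 0.69 ± 0.15, and MIR155 had 5.85, 6.20 and 5.99 with metformin, against 6.47, 6.52 and 6.58 without and fell by 0.51 ± 0.11. MIR1471 fell by 1.04 ± 0.23, with 5.58, 5.34 and 5.55 with metformin, against 6.86, 6.97 and 5.76 without, where untreated array C lay near the metformin arrays.

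Several U937 rises rested on the arrays that stood apart. MIR1299 rose by 0.96 ± 0.32 and had 0.27 without them (adjusted p = 0.54). MIR4712 rose by 0.92 ± 0.25 and had 0.32 (adjusted p = 0.337), and MIR548I3 rose by 0.87 ± 0.22 and had 0.27 (adjusted p = 0.31). MIR628 and MIR4525 (0.89) kept their U937 calls in each alternative tried.

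In KG1a, 3 loci rose and 3 fell, 6 of 503, beside 2.49% of all genes (0.818% higher, 1.67% lower), and 60 had arrays that did not overlap (36 higher, 24 lower), beside 21% (7.31% higher, 13.7% lower). MIR4798 (0.72 ± 0.17), MIR628 and MIR223 rose, and MIR4521 and MIR370 (-0.36 ± 0.09) fell. The third lower locus, MIR302D (-0.53 ± 0.14), was over the level in untreated KG1a only. MIR223 had 4.99, 4.97 and 5.11 with metformin, against 4.58, 4.59 and 4.49 without, which do not overlap, and rose by 0.47 ± 0.12 (adjusted p = 0.044). MIR4521 was the only 1 of the 6 to pass in every alternative tried. The KG1a count was 1 or 2 without metformin array A, B or C or untreated array A or C, and 12 without the 3 arrays of HL60 and U937 that stood apart. With arrays centred on their medians it was 4 higher and 1 lower.

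In MOLM14, 5 loci were higher and 2 lower, 7 of 503, beside 5.06% of all genes (2.48% higher, 2.57% lower), and 63 had arrays that did not overlap (35 higher, 28 lower), beside 26.4% (13.3% higher, 13% lower). MIR153-2 was over the level in metformin-treated MOLM14 cells only and had 4.79, 4.89 and 5.00 with metformin, against 3.96, 3.89 and 4.13 without. Its difference there, 0.90 ± 0.11, is a description, since that group brought it into the set. MIR1296 (0.77 ± 0.17), MIR628, MIR4263 (0.65 ± 0.17) and MIR616 rose. MIR370, in the imprinted chromosome 14 region of MEG8, had 6.73, 6.93 and 6.84 with metformin, against 7.20, 7.21 and 7.31 without and fell by 0.40 ± 0.09, as it did in KG1a, and MIR181B1 was the other fall. The MOLM14 count was 4 without untreated array A and 16 without the 3 arrays of HL60 and U937 that stood apart.

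The change of 26 microRNA loci differed between the 4 lines by limma's F test, beside 10% of all genes, and 17 differed between the OXPHOS classes, beside 6.69%. In the class comparison the change in the high OXPHOS lines KG1a and MOLM14 was set against that in the low OXPHOS lines HL60 and U937. It was more positive for 8 loci and more negative for 9, beside 2.05% and 4.64% of all genes. With arrays centred on their medians the split was 9 and 6. Each class is a pair of lines, and the p-values rest on the spread between arrays of a group, not between lines. An effect of OXPHOS class therefore cannot be told apart from other differences between these 4 lines.

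MIR21, a widely studied tumour-associated microRNA locus, had the largest positive class difference, 0.92 ± 0.17 (adjusted p = 0.0011). KG1a had 5.21, 5.13 and 5.27 with metformin, against 4.93, 4.98 and 4.49 without, and MOLM14 5.37, 5.61 and 5.63 with metformin, against 5.34, 4.96 and 5.21 without. HL60 had 4.76, 5.00 and 4.70 with metformin, against 5.73, 5.46 and 5.06 without, and U937 3.86, 3.71 and 3.77 with metformin, against 4.23, 4.67 and 3.89 without. All metformin arrays were above the untreated arrays in KG1a and MOLM14 and below them in HL60 and U937. The changes were 0.40 in KG1a and 0.37 in MOLM14, neither past the test alone, against -0.60 in HL60 and -0.48 in U937, both past it. The U937 fall (adjusted p = 0.0462) was lost in 18 of 32 alternatives and the HL60 fall without untreated HL60 array A, while the class difference passed in every alternative. VMP1, the autophagy gene whose span holds MIR21, had changes between -0.14 and 0.01 in the 4 lines, none past the test.

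MIR4521 differed by 0.87 ± 0.11 between the classes (adjusted p = 1.6e-05), with smaller changes in KG1a and MOLM14 than in HL60 and U937. MIR142 differed by 0.65 ± 0.15 (adjusted p = 0.0101), with changes of 0.05 and 0.07 in KG1a and MOLM14, against falls of 0.49 and 0.69 in HL60 and U937, and did not pass without KG1a or without MOLM14. MIR221 differed by 0.58 ± 0.15 (adjusted p = 0.0197), a difference that was -0.03 without U937. MIR1471 (0.79) and MIR548AB (0.71) had adjusted p = 0.0362 and 0.0384 and did not pass when untreated KG1a array A, among others, was left out (adjusted p = 0.0677 and 0.056). On the negative side were MIR628 (-1.08 ± 0.16), MIR548AG2 (-0.84), MIR3145 (-0.84), MIR616 (-0.67), MIR3671 (-0.56) and MIR4789 (-0.54), whose mean change was lower in KG1a and MOLM14 than in HL60 and U937. The MIR3671 difference (adjusted p = 0.029) was lost in 15 of 36 alternatives. Without HL60 the MIR3145 class difference was -0.07 and did not pass. MIR548AG2, over the level in HL60 only, and MIR616, under it in KG1a, did not pass without HL60 (class differences -0.45 and -0.45) or without KG1a. MIR4789 did not pass without KG1a or MOLM14. MIR370 differed by -0.48 ± 0.09 (adjusted p = 0.00223), with falls in both high OXPHOS lines and changes of 0.08 and 0.11 in HL60 and U937.

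MIR223 was the 1 member that passed the test in opposite directions in different lines, which 0.507% of all genes did. It rose by 0.47 ± 0.12 in KG1a and by 0.58 ± 0.12 in HL60, with 6.91, 6.76 and 6.82 with metformin, against 6.46, 6.07 and 6.22 without, and fell by 0.42 ± 0.12 in U937, with 6.99, 7.43 and 7.68 with metformin, against 7.94, 7.74 and 7.67 without. In HL60 the groups are separate, and in U937 metformin array C lay above the lowest untreated array. The U937 change was -0.23 without metformin array A (adjusted p = 0.201), -0.29 without the 3 arrays that stood apart (0.124) and did not pass without untreated array A. The KG1a rise was lost in 17 of 33 alternatives, and the HL60 rise in none. The test between the lines gave adjusted p = 0.00141. MIR424, known to be induced in monocyte differentiation, rose by 0.67 ± 0.10 in HL60 and had -0.13 in U937 (between lines, adjusted p = 0.0013). MIR181B1 (adjusted p = 0.00152) and MIR15B (0.00752) also differed between lines and had class differences of 0.09 and 0.36 that did not pass.

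**Figure D4:**
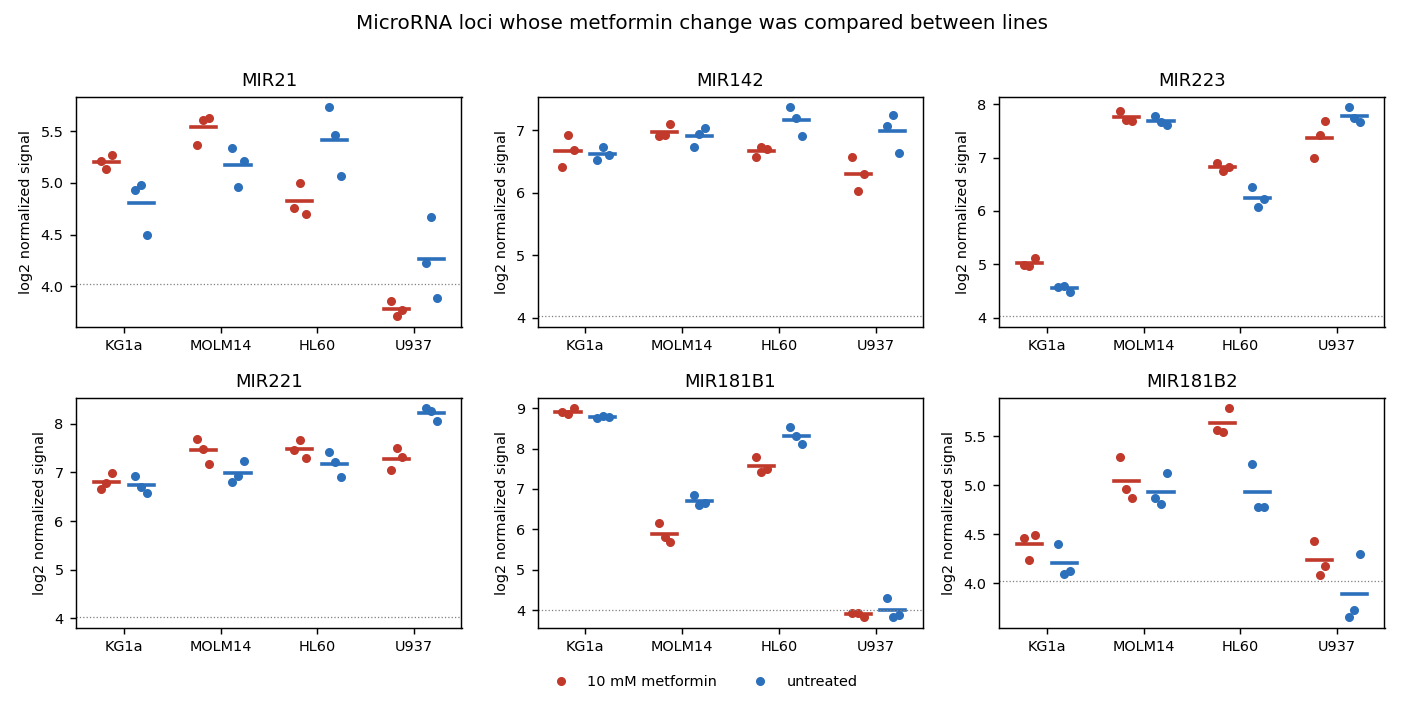
Log2 normalized signal (y axis) of 6 microRNA loci on each array, by line (x axis, KG1a and MOLM14 before HL60 and U937), metformin arrays in red left of untreated arrays in blue. Points are arrays, bars are means of 3 arrays and the dotted line is the level of 4.02. MIR21 was higher with metformin in KG1a and MOLM14 and lower in HL60 and U937, and MIR181B1 and MIR181B2 ran in opposite directions in HL60.

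Between untreated lines the levels of several loci differed by far more than metformin moved them. Since the level rule would force a difference for loci over it in 1 group, tests between untreated classes are read only for the 283 members over it in all 8 groups. Each class is a pair of lines here too, so OXPHOS class and other differences between the lines cannot be told apart. Over all 503, 131 passed (79 higher, 52 lower), beside 61.9% of all genes (28.4% higher, 33.5% lower). Of the 283, 40 were higher and 23 lower in KG1a and MOLM14 than in HL60 and U937, 22.3%, beside 62.1% of the 7432 genes over the level in all groups (25.8% higher, 36.3% lower). The largest differences upward were MIR1204 in PVT1 (1.15 ± 0.14), MIR548AA1 (1.12 ± 0.19), MIR4518 (1.06 ± 0.19), MIR580 (0.91), MIR570 (0.91) and MIR4677 (0.91). MIR1204 had 7.24, 7.03 and 6.81 in KG1a and 6.43, 6.46 and 6.61 in MOLM14, against 5.37, 5.33 and 5.63 in HL60 and 5.73, 5.72 and 5.91 in U937. All arrays of the high OXPHOS lines lay above those of the low OXPHOS lines.

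The largest differences downward were MIR548I2 (-2.09 ± 0.14), MIR25 (-1.28 ± 0.13), MIR646 (-1.20), MIR223 (-0.90), MIR4521 (-0.89) and MIR221 (-0.83). MIR548I2 was high in U937 alone, as given above, on its brightest array row. A second, dimmer row of MIR548I2 did not show this. Its untreated means were 4.08 in U937, 3.96 in HL60, 3.89 in KG1a and 4.19 in MOLM14. MIR223 had 4.58, 4.59 and 4.49 in KG1a, against 7.79, 7.67 and 7.61 in MOLM14, 6.46, 6.07 and 6.22 in HL60 and 7.94, 7.74 and 7.67 in U937, so the high OXPHOS line MOLM14 lay with U937. Its order from high to low was U937 and MOLM14, which overlap, then HL60, then KG1a. MIR4521 was low in KG1a, at 6.28 ± 0.16 (SD, n = 3), and 7.94 to 8.01 in the other 3 lines. MIR25 was lowest in KG1a too, at 4.49 ± 0.09, and its host MCM7 averaged 8.08 ± 0.02 there and 9.48 ± 0.01 in HL60.

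Some loci were present in certain lines and near the lower end in others, which are described by level only. MIR196B, in the HOXA cluster, averaged 9.70 ± 0.08 in untreated KG1a, 7.79 ± 0.09 in MOLM14, 7.53 ± 0.08 in U937 and 3.50 ± 0.17 in HL60 (SD, n = 3 each). MOLM14 and U937 lay closest in that order, and the HL60 arrays, 3.32, 3.67 and 3.51, were all under the level. With metformin MIR196B rose in U937 by 0.29 ± 0.10 (adjusted p = 0.0427), by 0.19 without the 3 arrays that stood apart (adjusted p = 0.342), and passed no test in the other lines. MIR181B1 averaged 8.78 ± 0.02 in KG1a, 8.31 ± 0.21 in HL60, 6.70 ± 0.13 in MOLM14 and 4.01 ± 0.26 in U937. MIR370 averaged 7.24 ± 0.06 in MOLM14, 6.86 ± 0.03 in U937 and 6.17 ± 0.14 in KG1a, and was under the level in HL60 at 3.17 ± 0.15. MIR33B averaged 6.87 ± 0.20 in MOLM14, 6.31 ± 0.05 in U937, 4.66 ± 0.29 in HL60 and 3.84 ± 0.22 in KG1a.

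**Figure D5:**
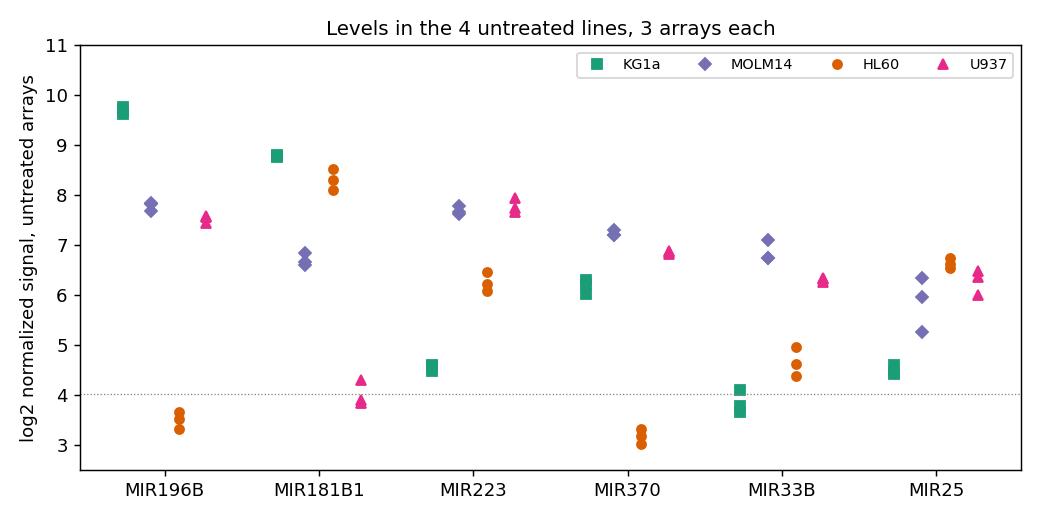
Log2 normalized signal (y axis) of 6 microRNA loci (x axis) on the 3 untreated arrays of each line, KG1a and MOLM14 left of HL60 and U937, with the level of 4.02 dotted. MIR196B and MIR370 are over the level in 3 lines and under it in HL60, and MIR181B1 is highest in KG1a and near the level in U937.

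Of 42 genes of the microRNA machinery 24 had a row and 22 reached the level. Of 3 dicing genes 1 had a row, and of 8 Argonaute and silencing genes 3. DROSHA, DICER1 and the Argonaute genes are not among the 22, so no change of theirs is given. On the mean of 4 lines 5 rose and 5 fell, beside 16.3% and 16.1% of all genes. In nuclear processing DGCR8, the partner of DROSHA, fell by 0.25 ± 0.05 (adjusted p = 0.000309), SRRT, of the nuclear cap-binding machinery, by 0.28 ± 0.05 (5.34e-05), and KHSRP, an RNA-binding protein that aids the processing of some precursors, by 0.33 ± 0.04 (5.88e-07), while the helicase gene DDX17 rose by 0.14 ± 0.04. The exporter gene XPO5 had a change of 0.00 ± 0.03 (adjusted p = 0.992), and TARBP2, the partner of Dicer, fell by 0.13 ± 0.05 (adjusted p = 0.0338), a call lost in 15 of 37 alternatives, HL60, MOLM14 or U937 left out among them. With the replicate letter as a block its adjusted p was 0.0512. TSN, of the translin complex, fell by 0.15 ± 0.05. Of the genes that act on targeted messages, the deadenylase subunits PAN2 and PAN3 rose by 0.51 ± 0.05 and 0.21 ± 0.03, the exonuclease XRN1 by 0.35 ± 0.06 and the silencing scaffold TNRC6B by 0.20 ± 0.05. The median change over the 22 was 0.01, beside -0.01 for all genes.

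Over the 8 group means, the genes with the pattern most like MIR628 were SETD2 (r = 0.975), DIP2A (0.965), PMS2P5 (0.965), PMS2P2 (0.965) and HERPUD2 (0.964). For MIR4521 they were ARF3 (r = 0.974), SMYD2 (0.966), DAXX (0.956), ZNF281 (0.954) and IQCE (0.950). PMS2P2 and PMS2P5 share 1 set of values. These are the highest correlations over all genes tested, from 8 points each on shared arrays, given as a description.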

How the data were processed

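RNA of 4 lines was labelled from 250 ng and hybridized, per the labels' protocols, and log2 normalized values were deposited for 24 arrays. The log2 scale is judged from their range. The submitters' processing notes name Partek. The sources used here give no normalization method, summarisation or build. No signal over background was available. The platform annotation named 1 gene for 16098 of 53617 rows (14884 genes, all identifiers matched in RefSeq GRCh38.p14), and a gene with several rows was read from its brightest. Genes with at least 1 group mean at or over 4.02 were kept (10641). The 8 group means were fitted with limma 3.58.1 in R 4.3.3 (16 residual degrees of freedom), with Benjamini-Hochberg adjustment over 10641 genes. Hosts are RefSeq genes whose span contains a locus.

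The members and the lists were chosen with earlier results of these data known. Named loci are, among those past the threshold, up to 12 largest changes each way for the mean of 4 lines, 6 each way per line, for the class difference and for untreated classes, and the 8 smallest p between lines, plus listed blood, p53, hypoxia and stress loci, with their hosts and cluster neighbours. MIR320D1, MIR539, MIR548C, UQCC2, the second array rows, the class difference of MIR370 and machinery genes beyond the 6 of smallest p were named after their values were seen. The fits were tested on simulated data. Other scalings, filters, array rows, a replicate block and left-out arrays and lines were tried.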

Additional observations from a re-analysis of the deposited data

Results flagged for a closer look

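The metformin change of the following loci differed between the 4 lines or between the OXPHOS classes, by limma's F test or contrast over all genes. The first value is the highest minus the lowest of the 4 line changes, and a class difference is the change in KG1a and MOLM14 minus that in HL60 and U937, all on the log2 scale.

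MIR3145 spanned 1.63 between lines (adjusted p = 4.47e-06) with a class difference of -0.84, MIR628 spanned 1.31 (0.000621) with -1.08, and MIR616 spanned 1.12 (0.00402) with -0.67. In KG1a, MIR616 was under the level with and without metformin. MIR548AG2 spanned 1.39 (0.0147) with a class difference of -0.84, values to be read as a description because only HL60 was over the level that brought it into the set. MIR4521 spanned 1.16 (3.67e-05) with a class difference of 0.87. MIR3671 had a class difference of -0.56 (0.029). MIR15B spanned 0.90 (0.00752), MIR424 0.80 (0.0013) and MIR181B1 0.94 (0.00152).

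MIR21 spanned 0.9996 between lines (adjusted p = 0.00456) with a class difference of 0.92, and MIR223 spanned 0.9987 (0.00141). MIR221 spanned 1.39 (0.000357) with a class difference of 0.58, MIR1471 spanned 1.44 (0.0188) with 0.79, and MIR142 spanned 0.76 (0.0337) with 0.65. MIR4798 spanned 1.11 (0.0106). MIR153-2 spanned 1.02 with a class difference of 0.47, given as a description because only metformin-treated MOLM14 was over the level that brought it into the set. MIR370 spanned 0.51 (0.00949) with a class difference of -0.48, and MIR4789 spanned 0.69 (0.0361) with -0.54. In HL60, MIR370 was under the level with and without metformin. MIR4795 and MIR548AB had class differences of 0.49 (0.0478) and 0.71 (0.0384).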

How the results depend on the processing

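Of 115 named results on members that passed the test, 56 passed in every alternative run and 59 missed the threshold in at least 1; 1 turned direction, the class difference of MIR221, -0.028 without U937. Requiring all 8 group means over the level, which tests fewer genes, gave 46 loci (87 as reported) for the mean of 4 lines, 36 (59) in HL60, 2 (6) in KG1a, 0 (7) in MOLM14 by limma, with 18 at an unadjusted p under 0.05, 27 (49) in U937, 8 (17) for the class difference, 12 (26) between lines and 63 (131) between untreated classes. The mean-of-4-lines count was 44 without HL60 and 18 with each line as 1 value (fewer samples). The class difference had 10 loci without KG1a and 29 without U937. Without the 3 arrays that stood apart the counts were 12 in KG1a (8 higher, 4 lower), 16 in MOLM14 (9 and 7) and 28 in U937 (12 and 16). Fits on 6 arrays alone gave 14 in MOLM14 and 31 in U937.

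With single arrays left out the counts ran from 73 to 100 for the mean of 4 lines, 37 to 76 in HL60, 1 to 9 in KG1a, 4 to 10 in MOLM14, 23 to 63 in U937, 11 to 23 for the class difference, 16 to 37 between lines and 117 to 143 between untreated classes. The class count of 11 came without untreated MOLM14 array B, and the 16 without metformin-treated HL60 array A. The replicate letters were treated as unpaired. Deviations of same-letter arrays correlated at -0.06 to 0.15, and those of different-letter arrays at -0.12 to 0.14. In HL60 all same-letter r (0.06, 0.07 and 0.15) lay above all different-letter r (at most 0.04). In KG1a, MOLM14 and U937 a different-letter pair had the highest r. With the letter as a replicate block the counts were 102 for the mean of 4 lines, 87 in HL60, 3 in KG1a, 8 in MOLM14, 56 in U937, 23 for the class difference, 37 between lines and 106 between untreated classes. Quantile normalization split HL60 calls 26 higher and 43 lower. Median centring split untreated calls 65 and 65. The causes were not tested. Signal over background was not available, so how dimness limits single loci is not known.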
